A study of Homo sapiens with 4 samples.

Results

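The H4K5la peaks of chromosomes 3 to 6 are all peaks that lie on chromosome 3, 4, 5 or 6 in the lists deposited for DNAJC12KO and WT SH-SY5Y cells. They number 245 for DNAJC12KO and 153 for WT, 398 of the 4698 peaks in all. H4K5la, lactylation of lysine 5 of histone H4, was measured by chromatin immunoprecipitation and sequencing in SH-SY5Y, a human neuroblastoma cell line. DNAJC12KO cells are knocked out for DNAJC12, whose product helps fold the hydroxylases of phenylalanine, tyrosine and tryptophan, and WT cells are the wild-type line; no drug or other agent is named for either. For each genotype 1 library was immunoprecipitated and 1 was input, and cells of both were fixed in 1% formaldehyde for 10 minutes and sonicated for 8 minutes. The labels do not say how the knockout was made or whether it is 1 clone. The data are 1 peak list per genotype and hold no read counts, which leaves sequencing depth unknown. Every difference between the genotypes therefore has no replicate check and none was tested. The peaks describe where the mark passed the authors' threshold, not how much of any gene was transcribed.

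Histone lactylation is an acyl mark on lysine whose donor derives from lactate, the product of glycolysis. Acyl marks on the tail of histone H4 are best known from the starts and bodies of active genes. Genes are spread unevenly along human chromosomes, in dense islands and towards some chromosome ends, with long stretches of few genes between them. Chromosome 6 carries the major histocompatibility complex and the largest cluster of histone genes, and chromosome 5 the clustered protocadherins and TERT.

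Chromosomes 3 to 6 had fewer genes per length than the rest together, with 5.11 protein-coding genes per Mb against 6.93 on the other 20 chromosomes. The description as gene-poor held unevenly among them. In gene density, chromosome 4 was 21st of the 24 chromosomes with 4.04 genes per Mb, chromosome 5 was 19th with 4.98 and chromosome 3 was 16th with 5.38. Chromosome 6 was 9th with 6.15 genes per Mb, so it is not gene-poor by this measure.

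Few of the peaks lay on promoters, and the sequences of those few show what the mark covered there. RefSeq promoter windows (GRCh38.p14, 250 bases before to 50 after a transcription start) numbered 7791 on chromosomes 3 to 6. A DNAJC12KO peak touched 7 of them, a WT peak touched 1, and none held a peak of both lists. Windows of the other chromosomes were not counted, so whether these numbers are particular to chromosomes 3 to 6 is unknown. The 5 windows with the highest −log10 q are printed 5′ to 3′ on the strand of the gene, with capitals for the bases inside the peak.
SHROOM1, chr5:132826261-132826560, minus strand, DNAJC12KO peak: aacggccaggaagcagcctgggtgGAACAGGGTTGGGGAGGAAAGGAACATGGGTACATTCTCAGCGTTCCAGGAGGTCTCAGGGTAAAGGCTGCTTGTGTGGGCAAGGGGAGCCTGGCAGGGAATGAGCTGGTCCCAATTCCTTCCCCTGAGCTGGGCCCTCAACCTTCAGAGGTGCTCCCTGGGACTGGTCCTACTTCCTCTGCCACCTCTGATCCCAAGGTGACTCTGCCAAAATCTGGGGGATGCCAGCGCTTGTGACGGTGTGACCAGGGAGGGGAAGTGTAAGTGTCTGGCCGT
RGS12, chr4:3385425-3385724, plus strand, DNAJC12KO peak: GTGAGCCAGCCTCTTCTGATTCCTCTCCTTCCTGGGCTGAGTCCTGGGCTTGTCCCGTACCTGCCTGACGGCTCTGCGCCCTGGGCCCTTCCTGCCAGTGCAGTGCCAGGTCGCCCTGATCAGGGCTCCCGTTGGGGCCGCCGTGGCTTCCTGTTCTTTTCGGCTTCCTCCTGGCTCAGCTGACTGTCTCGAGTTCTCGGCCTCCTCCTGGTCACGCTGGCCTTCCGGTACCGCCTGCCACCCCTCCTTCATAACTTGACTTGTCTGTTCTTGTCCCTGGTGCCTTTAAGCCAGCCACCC
LTF, chr3:46485185-46485484, minus strand, WT peak: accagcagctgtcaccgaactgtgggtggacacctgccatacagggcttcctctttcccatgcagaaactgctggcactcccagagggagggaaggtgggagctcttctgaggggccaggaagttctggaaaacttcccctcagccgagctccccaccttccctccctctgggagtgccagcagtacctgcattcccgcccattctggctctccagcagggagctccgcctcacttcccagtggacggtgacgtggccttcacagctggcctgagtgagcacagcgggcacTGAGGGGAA
PDE6B, chr4:625323-625622, plus strand, DNAJC12KO peak: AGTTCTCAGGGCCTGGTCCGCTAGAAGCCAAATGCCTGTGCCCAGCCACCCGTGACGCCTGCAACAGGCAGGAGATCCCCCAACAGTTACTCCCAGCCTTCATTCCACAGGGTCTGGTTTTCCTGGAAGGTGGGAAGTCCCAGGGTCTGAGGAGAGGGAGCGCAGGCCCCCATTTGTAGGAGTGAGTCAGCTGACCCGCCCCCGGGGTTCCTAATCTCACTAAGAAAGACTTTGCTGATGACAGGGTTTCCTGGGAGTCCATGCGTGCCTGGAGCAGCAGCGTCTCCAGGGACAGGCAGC
PNPLA1, chr6:36270210-36270509, plus strand, DNAJC12KO peak: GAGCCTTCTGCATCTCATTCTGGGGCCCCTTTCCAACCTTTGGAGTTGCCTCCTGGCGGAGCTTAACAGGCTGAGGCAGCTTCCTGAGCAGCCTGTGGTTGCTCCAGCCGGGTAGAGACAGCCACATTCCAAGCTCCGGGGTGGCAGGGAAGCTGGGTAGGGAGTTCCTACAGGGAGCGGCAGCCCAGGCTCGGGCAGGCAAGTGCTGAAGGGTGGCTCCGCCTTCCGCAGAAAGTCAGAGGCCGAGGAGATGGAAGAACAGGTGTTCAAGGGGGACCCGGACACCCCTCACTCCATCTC
The peaks covered the whole window of RGS12, PDE6B and PNPLA1 and 276 bases of that of SHROOM1. The WT peak at LTF, the gene of the milk and neutrophil protein lactoferrin, reached into only the last 9 bases of its window. The windows of SHROOM1, RGS12 and PNPLA1 belong to starts inside the gene record, and those of LTF and PDE6B to the start of the record. RGS12 encodes a regulator of G-protein signalling, SHROOM1 an actin-binding protein, PDE6B a subunit of the rod phosphodiesterase, and PNPLA1 an enzyme of skin lipid synthesis. The windows held 5 CG pairs at SHROOM1, 13 at RGS12, 7 at LTF, 8 at PDE6B and 9 at PNPLA1. The median over all 7791 windows was 11, and 368 windows held no CG. SHROOM1, LTF, PDE6B and PNPLA1 were chosen after their values were seen.

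Of the 248 miRNA hairpins on these chromosomes, 2 touched a peak, both of the DNAJC12KO list. Hairpins of the other chromosomes were not counted. Their mature miRNAs are printed with the seed, bases 2 to 8, in capitals (RefSeq, GRCh38.p14).
hsa-miR-943: cUGACUGUugccguccuccag
hsa-miR-6721-5p: uGGGCAGGggcuuauuguaggag
MIR943 lay in the peak at chr4:1986381-1986996 (fold 3.31), inside NELFA, which encodes a subunit of the negative elongation factor. MIR6721 lay in the peak at chr6:32169715-32170198 (fold 3.54), inside AGPAT1, an acyltransferase gene of phospholipid synthesis, and beside EGFL8. Their seeds differ, and these genes too were chosen after their values were seen.

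Peaks on chromosomes 3 to 6 were sparse, below these chromosomes' share of length and of genes. These chromosomes make up 24.0% of the annotated span, the length from the first to the last gene record of each chromosome, and carry 18.9% of the protein-coding genes. They held 8.93% (7.89 to 10.1) of the peaks in the DNAJC12KO list and 7.90% (6.74 to 9.19) of those in the WT list. Brackets after a share give its exact binomial (Clopper-Pearson) 95% interval, which covers counting error only. Per 100 protein-coding genes there were 6.47 DNAJC12KO peaks, against 15.4 on the other chromosomes. The WT list had 4.04 per 100 genes on chromosomes 3 to 6, against 11.0 on the other chromosomes. The other chromosomes are pooled here, and 7 and 17 among them had the most peaks per 100 genes in both lists. Ranked by DNAJC12KO peaks per 100 genes, chromosome 4 was 15th of the 24 chromosomes, chromosome 3 16th, chromosome 5 20th and chromosome 6 21st. The WT ranks were 16th (chromosome 4), 15th (chromosome 3), 21st (chromosome 5) and 22nd (chromosome 6). Chromosomes 12 (7.91), 15 (7.46), 18 (4.81) and X (3.42) had fewer DNAJC12KO peaks per 100 genes than chromosome 3. The DNAJC12KO list had 1.60 times as many peaks as the WT list on chromosomes 3 to 6 and 1.40 times as many on the others together. Among chromosomes 3 to 6 this ratio ran from 1.41 (chromosome 3) to 1.80 (chromosome 4). Among the other chromosomes with peaks in both lists it ran more widely, from 1.00 (chromosome 18) to 2.53 (chromosome 12).

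The chromosomes differed among themselves. Chromosome 3 held 89 DNAJC12KO and 63 WT peaks, and chromosome 4 held 72 DNAJC12KO and 40 WT peaks. Chromosome 5 held 43 DNAJC12KO and 25 WT peaks, and chromosome 6 held 41 DNAJC12KO and 25 WT peaks. Per 100 genes, chromosome 4 was the richest of these in the DNAJC12KO list (9.36) although it has the fewest genes per Mb, and chromosome 3 was the richest in the WT list (5.91). Chromosome 6 was the poorest in both, with 3.91 DNAJC12KO and 2.38 WT peaks per 100 genes, although it has the most genes per Mb.

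The low number also held where genes were dense, against the other chromosomes pooled, which include peak-rich ones such as chromosome 7. In 1 Mb bins with at least 20 protein-coding genes, chromosomes 3 to 6 had a mean of 2.84 DNAJC12KO peaks per bin, against 4.85 on the other chromosomes. The WT list had a mean of 1.60 peaks per such bin, against 3.86 on the other chromosomes. In bins with 10 to 14 genes the DNAJC12KO mean was 0.441 on chromosomes 3 to 6 and 2.14 on the others, and the WT mean was 0.271 on chromosomes 3 to 6 and 1.55 on the others. Bins without a gene had almost no peaks anywhere, with 0.034 DNAJC12KO peaks per bin both on chromosomes 3 to 6 and elsewhere.

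**Figure D1:**
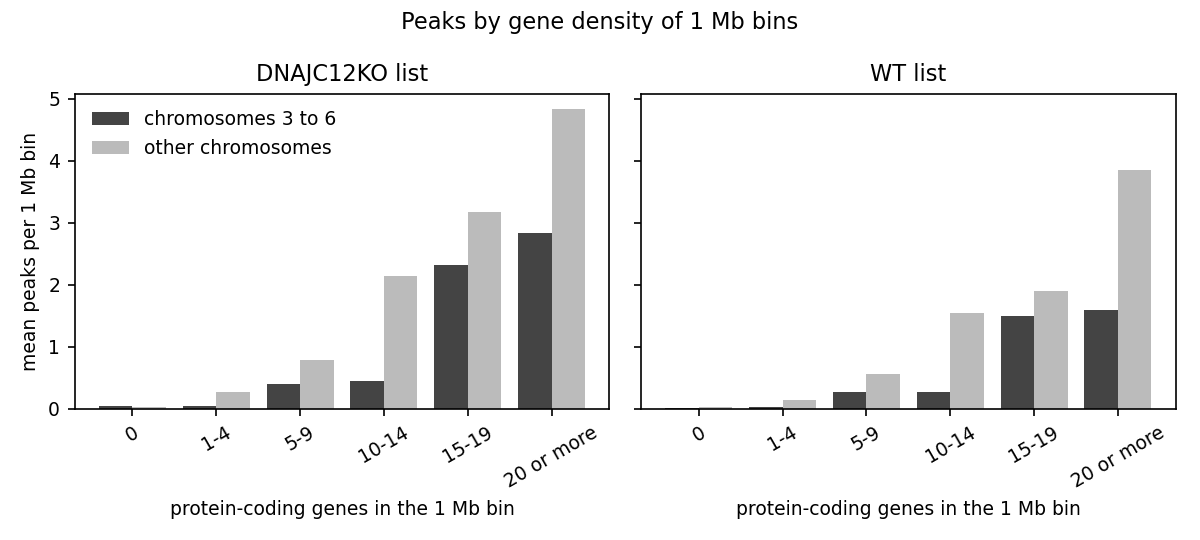
Mean number of H4K5la peaks per 1 Mb bin (vertical axis) by the number of protein-coding genes in the bin (horizontal axis), with the DNAJC12KO list in the left panel and the WT list in the right one. Dark bars are chromosomes 3 to 6 and light bars the other 20 chromosomes; from 1 gene per bin upwards the dark bars are the lower ones in both lists.

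Along the chromosomes the peaks kept to a few places. End zones, within 5 Mb of either end of the annotated span, make up 5.40% of the span and 9.24% of the protein-coding genes. They held 33.9% (27.97 to 40.2) of the DNAJC12KO peaks and 45.8% (37.7 to 54.0) of the WT peaks. On the other chromosomes end zones held 44.4% of the DNAJC12KO peaks and 48.9% of the WT peaks, on 8.53% of the span.

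End zones counted most on chromosomes 4 and 5. End zones held 61.1% (48.9 to 72.4) of the DNAJC12KO peaks and 67.5% (50.9 to 81.4) of the WT peaks of chromosome 4. On chromosome 5 they held 48.8% (33.3 to 64.5) of the DNAJC12KO peaks and 64.0% (42.5 to 82.0) of the WT peaks. On chromosome 3 the shares were 14.6% (8.01 to 23.7) in the DNAJC12KO list and 30.2% (19.2 to 43.0) in the WT list. On chromosome 6 they were 12.2% (4.08 to 26.2) in the DNAJC12KO list and 32.0% (14.9 to 53.5) in the WT list. On all 4 chromosomes the WT list had the higher share, with intervals that overlap on each.

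**Figure D2:**
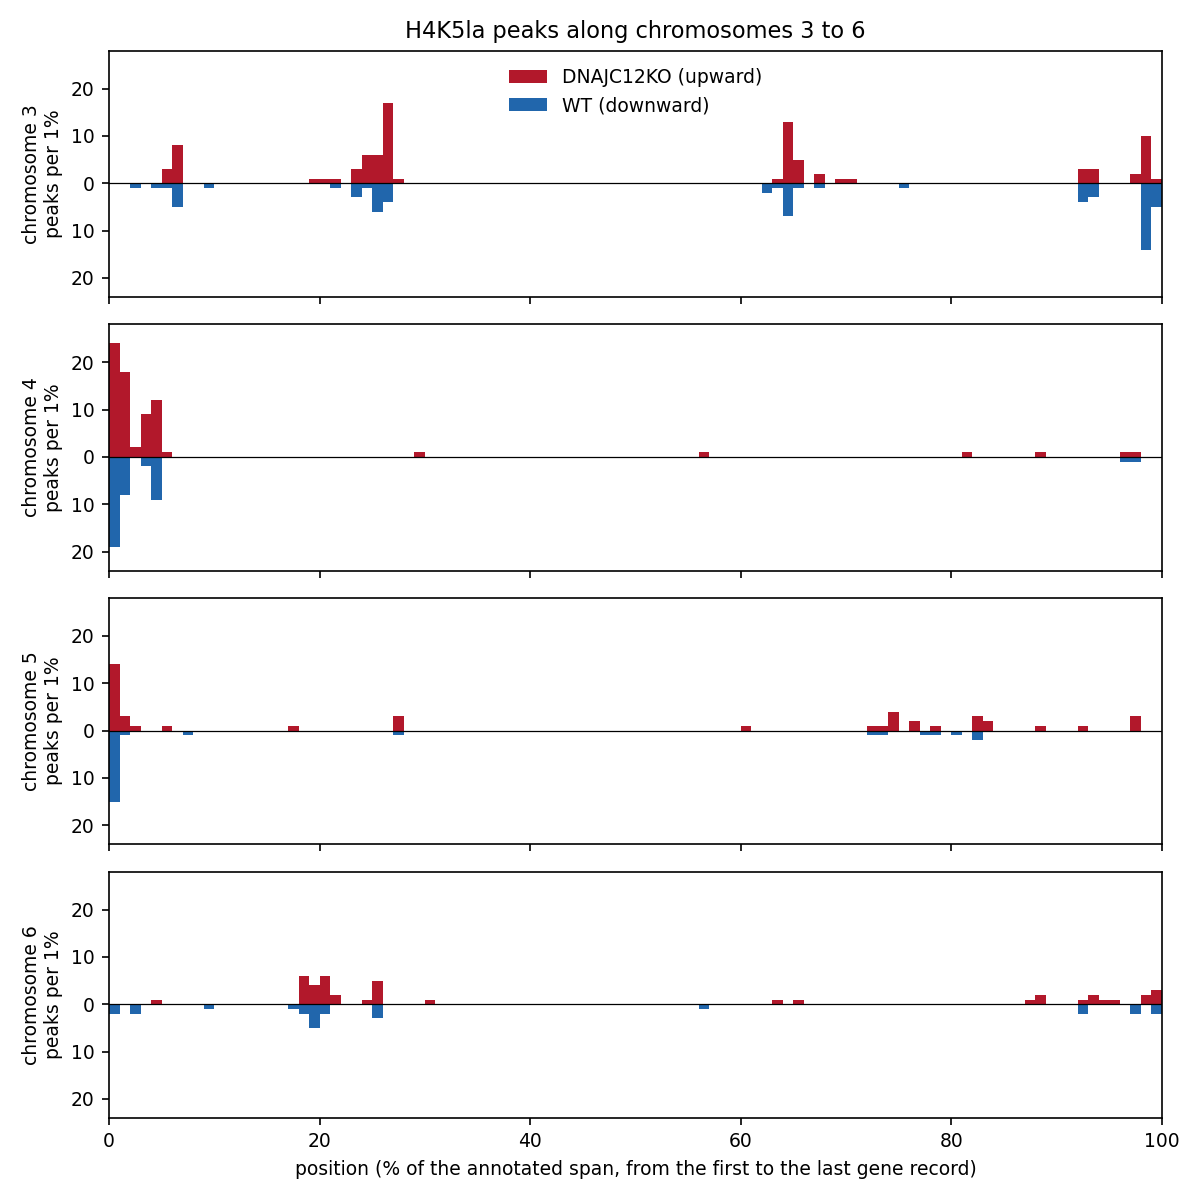
Number of H4K5la peaks per 1% of the annotated span (vertical axis) along chromosomes 3, 4, 5 and 6, with position as percent of the span (horizontal axis). DNAJC12KO peaks are drawn upwards in red and WT peaks downwards in blue; the left end of chromosome 4 stands out in both lists, and long stretches hold no peak in either.

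Gene-dense bins, 1 Mb bins with at least 15 protein-coding genes, numbered 47 and made up 6.34% of the span and 28.7% of the genes. They held 49.8% (43.4 to 56.2) of the DNAJC12KO peaks and 47.7% (39.6 to 55.9) of the WT peaks. End zones and gene-dense bins together held 62.9% (56.5 to 68.9) of the DNAJC12KO peaks and 68.6% (60.6 to 75.9) of the WT peaks. On the other chromosomes gene-dense bins made up 13.1% of the span and 47.0% of the genes. They held 52.2% of the DNAJC12KO peaks and 54.1% of the WT peaks there. End zones and gene-dense bins together held 73.1% of the DNAJC12KO peaks and 76.2% of the WT peaks of the other chromosomes. Each kind of zone takes up more of the span there, so the shares of peaks are not on the same scale.

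Not every gene-dense bin carried the mark. A DNAJC12KO peak lay in 30 of the 47 bins, a WT peak in 25, and peaks of both in 24. Dense bins without a peak of a list were also found elsewhere. On the other chromosomes, 77 of 113 bins with 15 to 19 genes had a DNAJC12KO peak and 64 a WT peak. Of 195 bins there with at least 20 genes, 156 had a DNAJC12KO peak and 135 a WT peak. On chromosomes 3 to 6 these numbers were 12 and 10 of 22 bins, and 18 and 15 of 25 bins. The 16 bins without any peak held 342 protein-coding genes, and many of them are arrays of related genes. From 26 to 30 Mb on chromosome 6, 4 adjoining bins hold histone genes such as H4C1 and H3C1, olfactory receptors such as OR2J3, and zinc finger genes such as ZSCAN9. On chromosome 5, the bin from 140 to 141 Mb starts the protocadherin cluster and that from 17 to 18 Mb holds the TAF11L array. On chromosome 4 the empty bins are the USP17L array of deubiquitinase genes (9 to 10 Mb), a group of saliva, milk and enamel protein genes with CSN3 and AMBN (70 to 71 Mb) and the alcohol dehydrogenases (99 to 100 Mb). On chromosome 3 they include OR5 olfactory receptors (98 to 99 Mb) and zinc finger genes with ZNF445 (44 to 45 Mb). Other empty bins hold no such array, among them that of EGR1, an immediate early transcription factor, on chromosome 5 (138 to 139 Mb). These genes were chosen after the bins were seen to be empty. Values for near-identical copies, as in the USP17L and TAF11L arrays, are uncertain because reads can be split among them. An empty bin means only that nothing there passed the threshold.

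The longest stretches without a peak in either list covered 26.5% to 34.3% of the span of each chromosome. On chromosome 3 the stretch ran from 55320841 to 123291799 (68.0 Mb) past 234 protein-coding genes. On chromosome 5 it ran from 49657676 to 110227715 (60.6 Mb) past 217 genes, and on chromosome 4 from 56314939 to 108325564 (52.0 Mb) past 240 genes. On chromosome 6 it ran from 52116745 to 97274639 (45.2 Mb) past 146 genes.

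Adjoining 1 Mb bins with a peak in either list formed 55 stretches, and the 5 with the most peaks held 147 DNAJC12KO peaks (60%, 53.6 to 66.2) and 96 WT peaks (62.7%, 54.6 to 70.4). The place of the fifth was tied at 28 peaks over both lists between 126 to 130 Mb of chromosome 3, counted here as the lower chromosome number, and 30 to 37 Mb of chromosome 6. That region, which holds the major histocompatibility complex, had 18 DNAJC12KO and 10 WT peaks over 199 genes, with 1 peak of each list within 10 kb of the other. The 5 stretches counted cover 31 Mb, 4.19% of the span, and carry 420 protein-coding genes, 11.1% of the total. The stretches were defined by these peaks, so the shares describe how bunched the peaks were and nothing else.

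The first 9 Mb of chromosome 4 held 65 DNAJC12KO and 38 WT peaks on 14.3% of the chromosome's genes. That is 90.3% of its DNAJC12KO peaks and 95% of its WT peaks. SORCS2, a sorting receptor of the VPS10 family found in neurons, had 4 DNAJC12KO peaks and 1 WT peak. FAM53A had 1 DNAJC12KO peak and 4 WT peaks, spread from 1591741 to 1638624. IDUA, the lysosomal α-L-iduronidase, had 3 DNAJC12KO and 2 WT peaks, and SLC26A1, a sulphate transporter whose record overlaps that of IDUA, had 2 of these DNAJC12KO and both of these WT peaks. FGFR3, a receptor tyrosine kinase for fibroblast growth factors, held 2 DNAJC12KO peaks and no WT peak. Its peak at chr4:1802256-1802662 had the highest fold of the DNAJC12KO list on these chromosomes (4.81, −log10 q 2.59), and the nearest WT peak lay 155 kb from the gene. Fold is the authors' enrichment over background and −log10 q the peak caller's adjusted significance, both averaged over a peak and used only for describing and ordering the peaks of 1 list.

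The stretch from 46 to 54 Mb of chromosome 3 held 32 DNAJC12KO and 14 WT peaks over 173 genes. DNAH1, a heavy chain of axonemal dynein, held 7 DNAJC12KO peaks from 52355641 to 52400809 and no WT peak. Their folds ran from 3.39 to 4.03, and the nearest WT peak lay 122 to 136 kb away from each of them. The last of them reached beyond the gene record, and both at that end lay within 3 kb of BAP1, a tumour suppressor that removes ubiquitin from histone H2A. SEMA3F, a secreted semaphorin, had 2 peaks in each list, the closest pair 0.140 kb apart. MST1R, the receptor of macrophage-stimulating protein, had 2 DNAJC12KO peaks and 1 WT peak, and ALS2CL had 1 DNAJC12KO peak and none in the WT list.

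The first 5 Mb of chromosome 5 held 18 DNAJC12KO and 16 WT peaks on only 40 genes. SLC9A3, a sodium-proton exchanger, had 2 peaks in each list, none closer than 7.52 kb to the other list. PLEKHG4B had 1 DNAJC12KO and 3 WT peaks, and ZDHHC11B, a protein palmitoyltransferase gene, had 1 in each. TERT, the catalytic subunit of telomerase, had 1 DNAJC12KO and 2 WT peaks.

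The end of chromosome 3, from 193 to 198 Mb, was the only one of the 5 stretches with fewer DNAJC12KO than WT peaks, 13 DNAJC12KO and 19 WT. TNK2, a non-receptor tyrosine kinase, carried the most peaks of any gene on these chromosomes, 4 DNAJC12KO and 7 WT. The DNAJC12KO peaks lay between 195874088 and 195886857 with folds of 3.42 to 4.72. The WT peaks were spread more widely, between 195863843 and 195906986, with folds of 3.59 to 4.42. XXYLT1, a xylosyltransferase that extends sugars on Notch, had 2 DNAJC12KO and 3 WT peaks, and MELTF, melanotransferrin, had 1 DNAJC12KO and 2 WT peaks. The mucin gene MUC4 had 1 in each list.

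From 126 to 130 Mb chromosome 3 held 19 DNAJC12KO and 9 WT peaks on 46 genes. PLXNA1, a plexin that serves as a semaphorin co-receptor, had 5 peaks in each list and 1 pair that overlapped. RUVBL1, an ATPase of chromatin remodelling complexes, had 3 DNAJC12KO peaks and no WT peak, the nearest lying 245 kb or more from each. ABTB1 and PLXND1, another plexin, each had 1 DNAJC12KO peak and none in the WT list. Outside these 5 stretches, IQSEC1, an exchange factor for ARF GTPases on chromosome 3, had 4 DNAJC12KO and 2 WT peaks.

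**Figure D3:**
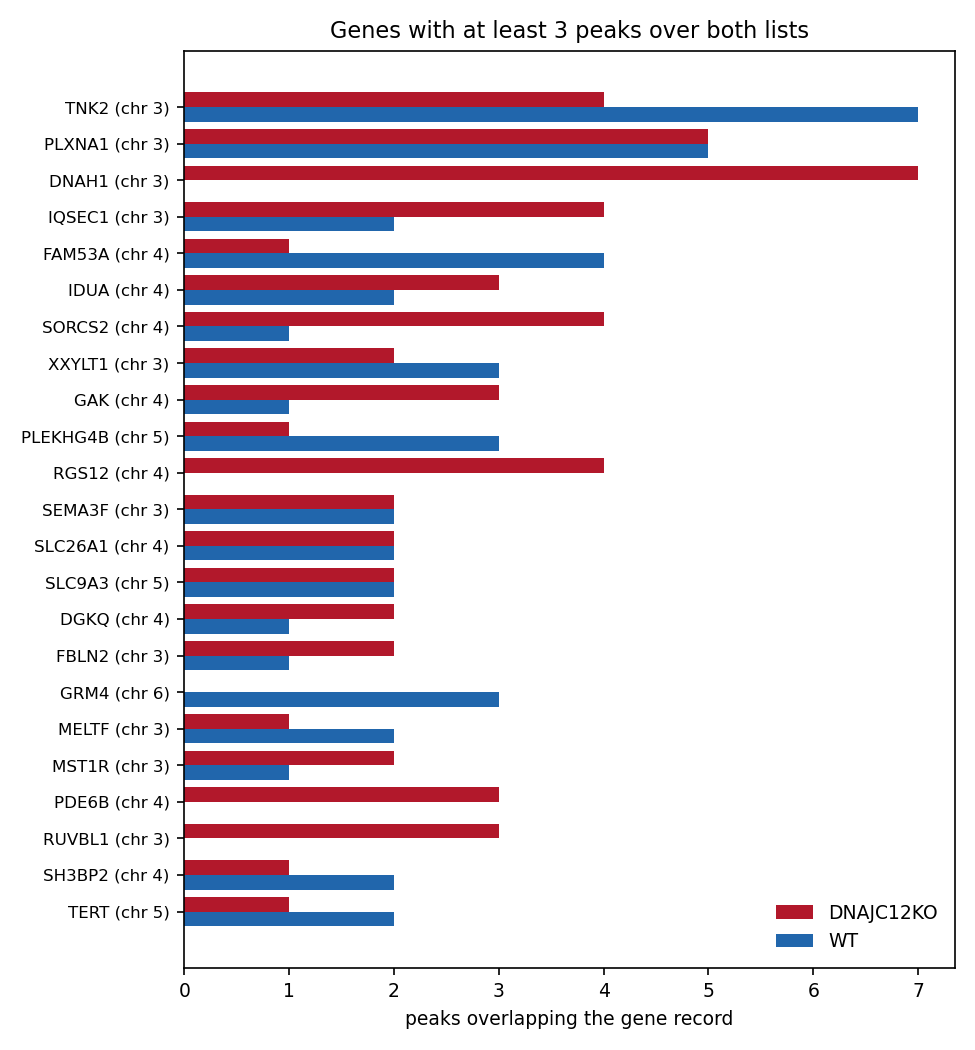
Number of peaks overlapping the gene record (horizontal axis) for the 23 protein-coding genes of chromosomes 3 to 6 with at least 3 peaks over both lists. Red bars are the DNAJC12KO list and blue bars the WT list, 1 library each; TNK2 leads with 4 DNAJC12KO and 7 WT peaks, and DNAH1 has 7 DNAJC12KO peaks and no WT peak.

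Most peaks lay in gene bodies. By the peak centre, 55.1% (48.6 to 61.4) of the DNAJC12KO peaks and 62.1% (53.9 to 69.8) of the WT peaks were inside a protein-coding gene and more than 3 kb from either end of any such gene. A further 21.6% (16.6 to 27.3) of the DNAJC12KO peaks and 22.2% (15.9 to 29.6) of the WT peaks lay within 3 kb of a gene end. Outside all gene records lay 19.6% (14.8 to 25.1) of the DNAJC12KO peaks and 13.1% (8.17 to 19.5) of the WT peaks. On the other chromosomes the shares inside a protein-coding gene were near these, 58.9% of the DNAJC12KO and 60.8% of the WT peaks. Gene ends there held 22.2% of the DNAJC12KO and 25.6% of the WT peaks. Outside genes there lay 14.1% of the DNAJC12KO peaks and 9.92% of the WT peaks. The share of the span that lies inside genes is not given here.

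Gene ends here did not mean gene starts. The gene table gives no strand, but the promoter table gave it for 3308 of the 3787 protein-coding genes. Of the 53 DNAJC12KO peaks at gene ends, 14 lay at a start, 28 at the far end, 6 at both kinds and 5 at genes of unknown strand. Of the 34 WT peaks there, 12 lay at a start, 17 at the far end, 1 at both kinds and 4 at genes of unknown strand. When gene bodies were cut into 3 equal parts, 28 of 120 DNAJC12KO peaks lay in the part next to the start, 39 in the middle and 53 in the part next to the end. For 87 WT peaks the numbers were 22, 31 and 34. Within 1 kb of a known transcription start lay 18 DNAJC12KO peaks (7.35%) and 6 WT peaks (3.92%), and the median distance was 13.8 kb in the DNAJC12KO list, against 11.1 kb in the WT list.

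Most peaks lay little above the authors' threshold. The fold had a median of 3.72 in the DNAJC12KO list (range 1.82 to 4.81) and 3.83 in the WT list (2.82 to 5.22). The −log10 q had a median of 1.45 in the DNAJC12KO list, against 1.47 in the WT list, where the lists stop near 1. A −log10 q of 2 was reached by 19 DNAJC12KO peaks (7.76%) and 16 WT peaks (10.5%). The median width was 446 bp in the DNAJC12KO list, against 458 bp in the WT list.

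The peak with the highest −log10 q in both lists was the same place on chromosome 5 near the centromere, far from any protein-coding gene. The DNAJC12KO list had chr5:49600544-49600887 (fold 2.77, −log10 q 4.32) and the WT list had chr5:49599549-49600847 (fold 2.82, −log10 q 4.72), each 795 kb from EMB. These folds were low beside the medians of 3.72 (DNAJC12KO) and 3.83 (WT), and that of WT was the lowest of its list here. The lowest DNAJC12KO fold, 1.82, lay nearby at chr5:49657246-49657675. How well reads map at this place was not examined, so its rank by −log10 q is uncertain. Next in the DNAJC12KO list came chr3:55320413-55320840 (fold 4.62, −log10 q 2.68), 145 kb from WNT5A, then the peak in FGFR3. The DNAJC12KO peaks at chr4:7737943-7738272 in SORCS2 (fold 4.58) and chr3:195874088-195874408 in TNK2 (fold 4.72) followed. Among the leading WT peaks were chr4:3239111-3239544 in HTT, the huntingtin gene (fold 4.68), and chr3:196947484-196948250 in PIGZ (fold 4.52). The WT peak chr3:195876008-195876334 in TNK2 (fold 4.42) was also among them.

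**Figure D4:**
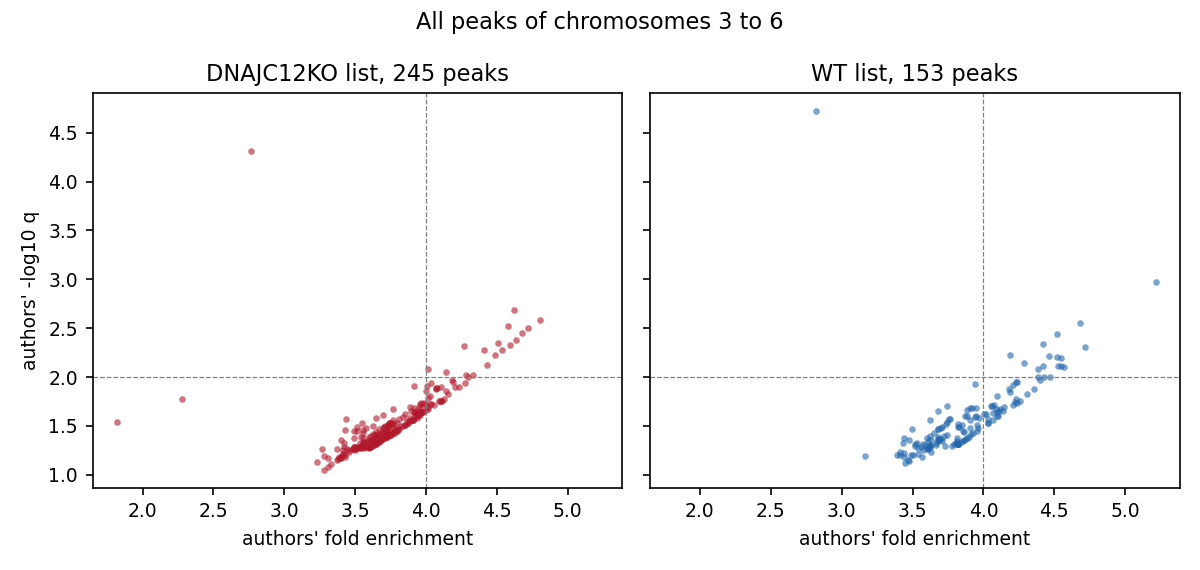
The authors' fold enrichment (horizontal axis, linear) and −log10 q (vertical axis) of each peak on chromosomes 3 to 6, with the 245 DNAJC12KO peaks on the left and the 153 WT peaks on the right. Dashed lines mark a fold of 4 and a −log10 q of 2; the top point of each panel is the place on chromosome 5 near the centromere, with a fold of 2.77 in the DNAJC12KO panel and 2.82 in the WT panel.

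Few genes carried a peak at an end. Within 3 kb of either end, 72 of the 3787 protein-coding genes had a DNAJC12KO peak (1.90%) and 41 had a WT peak (1.08%), against 3.85% (DNAJC12KO) and 3.18% (WT) of all protein-coding genes. Peaks of both lists lay at the ends of 7 genes, where the share over all protein-coding genes was 0.804%. In the gene record or at an end, 165 genes had a DNAJC12KO peak (4.36%) and 109 had a WT peak (2.88%), against 8.23% (DNAJC12KO) and 6.46% (WT) of all protein-coding genes. Both lists had a peak in 38 of these, 1.003% of the 3787, where the share over all protein-coding genes was 2.92%. That is 23.03% of the genes with a DNAJC12KO peak, against 36.9% on the other chromosomes, and 34.9% of the genes with a WT peak, against 46.1% on the other chromosomes. On those other chromosomes more genes had a peak, 9.13% of them for DNAJC12KO and 7.30% for WT. Fewer genes with a peak lower these shared fractions by themselves, so the difference is a description only. The 236 genes with any peak had a median length of 37.0 kb, against 32.7 kb for all 3787, and 172 of them had just 1 peak.

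End peaks of the DNAJC12KO list alone marked 65 genes (1.72%), against 3.05% of all protein-coding genes. Leading them by −log10 q were ABTB1 (fold 4.63), SLC26A1 (4.26), RGS12 (4.41) and RAB6B, a small GTPase of Golgi transport (4.03). The centre of the peak at RGS12 lay 276 bp from the start of the gene. CDHR2, a cadherin of the intestinal brush border, and its neighbour GPRIN1 shared 1 DNAJC12KO peak (3.91). SLC26A1 is in this set by the window only, because WT peaks also lay inside the gene, 1 of them overlapping that DNAJC12KO peak.

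End peaks of the WT list alone marked 34 genes (0.898%), against 2.38% of all protein-coding genes. They were led by PIGZ, a mannosyltransferase of the GPI anchor (fold 4.52). A WT peak (4.72) lay at the ends of both DOK7, an adaptor of the neuromuscular synapse, and LRPAP1, a chaperone of LDL receptor family proteins. LRPAP1 is in this set by the window only, because a DNAJC12KO peak (4.06) lay inside the gene, 0.479 kb from the nearest WT peak. Another WT peak (4.52) lay at ALG3, a mannosyltransferase of N-glycan synthesis, and VWA5B2, and another (4.57) at MAN2B2, a lysosomal mannosidase.

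Genes with end peaks in both lists were CSF2, VARS1, VWA7, FBLN2, TERT, MRPL36 and IDUA. At CSF2, which encodes the growth factor GM-CSF, the DNAJC12KO peak (fold 4.01) and the WT peak (4.24) lay 0.596 kb apart. VARS1, a valine tRNA synthetase, and its neighbour VWA7 shared a DNAJC12KO peak (4.27) and a WT peak (4.06) 0.412 kb apart. At FBLN2, an extracellular matrix gene, the lists marked opposite ends, at 13635551 in the DNAJC12KO list (3.76) and at 13548266 in the WT list (3.82). At MRPL36, a mitochondrial ribosomal protein gene, the folds were 3.92 in the DNAJC12KO list, against 3.62 in the WT list.

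Peaks of both genotypes seldom fell on the same bases. Of the DNAJC12KO peaks, 7 (2.86%, 1.16 to 5.80) overlapped a WT peak by at least 1 bp, against 6.31% over the whole list. Of the WT peaks, 6 (3.92%, 1.45 to 8.34) overlapped a DNAJC12KO peak, against 8.88% over the whole list. Within 10 kb of the other list lay 48 DNAJC12KO peaks (19.6%, 14.8 to 25.1) and 46 WT peaks (30.1%, 22.9 to 38.0), against 29.7% of the whole DNAJC12KO list and 40.2% of the whole WT list. Without chromosomes 3 to 6, the DNAJC12KO share within 10 kb was 30.7% (28.9 to 32.6) and the WT share 41.0% (38.7 to 43.4). These intervals treat peaks as independent, although peaks bunched within genes. Both lists were also sparser on chromosomes 3 to 6, with 0.331 DNAJC12KO and 0.207 WT peaks per Mb. Elsewhere there were 1.06 DNAJC12KO and 0.760 WT peaks per Mb. Fewer peaks per Mb lower such shares by themselves, so the difference is a description only. The median distance to the other list was 134 kb from a DNAJC12KO peak and 40.7 kb from a WT peak.

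Chromosome 6 had the least sharing. No peak there overlapped one of the other list, and only the pair at VARS1 and VWA7 lay within 10 kb. That is 2.44% (0.0617 to 12.9) of its 41 DNAJC12KO peaks and 4.00% (0.101 to 20.4) of its 25 WT peaks. On chromosomes 3, 4 and 5 the DNAJC12KO share within 10 kb was 23.6%, 25% and 18.6%, and the WT share 33.3%, 42.5% and 28%.

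**Figure D5:**
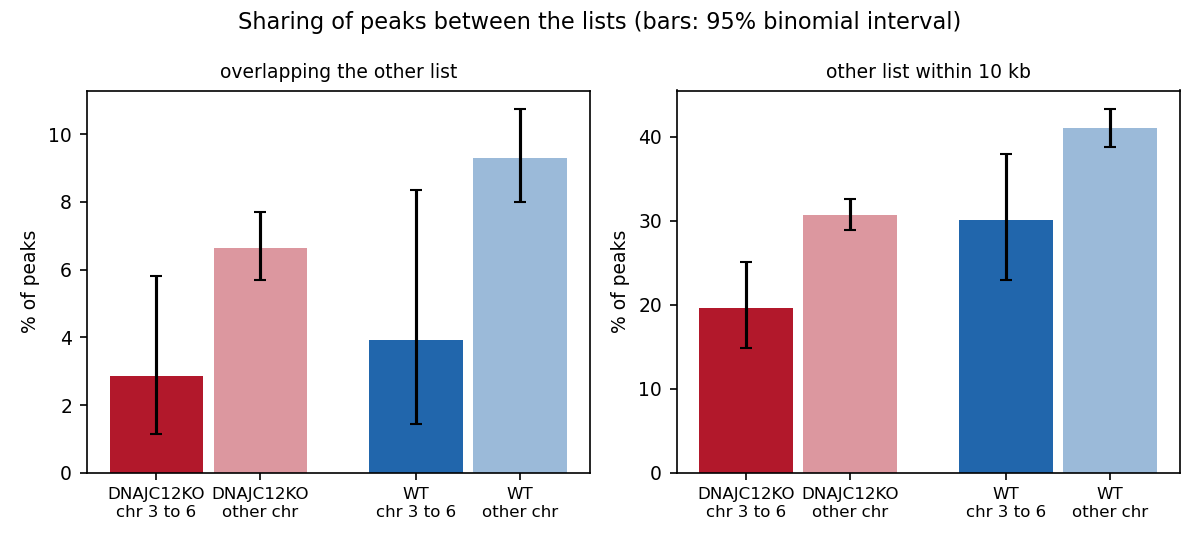
Percent of peaks that overlap the other list by at least 1 bp (left panel) or have a peak of the other list within 10 kb (right panel), for the DNAJC12KO list in red and the WT list in blue. Dark bars are chromosomes 3 to 6, light bars the other chromosomes, and lines give exact binomial 95% intervals; the dark bars are the lower ones in each pair, with 19.6% against 30.7% for DNAJC12KO peaks within 10 kb.

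The overlaps fell at 6 places. At TERT the DNAJC12KO peak chr5:1293067-1293775 (fold 3.84) enclosed the whole WT peak chr5:1293103-1293550 (fold 4.43). Their centres were 1647 bp (DNAJC12KO) and 1742 bp (WT) from the transcription start, on the gene side of it. At PLXNA1 the DNAJC12KO peak chr3:126990434-126990726 and the WT peak chr3:126990499-126990905 shared 228 bp, with folds of 3.67 (DNAJC12KO) and 3.95 (WT). At TNK2 the DNAJC12KO peak chr3:195876173-195876729 and the WT peak chr3:195876008-195876334 shared 162 bp. The overlap at SLC26A1 and IDUA was 196 bp, between chr4:990157-990864 in the DNAJC12KO list and chr4:989796-990352 in the WT list. At HGFAC, the activator of hepatocyte growth factor, chr4:3443961-3444391 in the DNAJC12KO list and chr4:3444210-3444701 in the WT list shared 182 bp. The sixth place was that near the centromere of chromosome 5, where 2 DNAJC12KO peaks lay over 1 WT peak and read mapping was not examined. In none of these places did the peaks of both lists reach a fold of 4.

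Sharing was denser in the crowded stretches. In the 5 stretches, 40 of 147 DNAJC12KO peaks and 40 of 96 WT peaks lay within 10 kb of the other list. Elsewhere 8 of 98 DNAJC12KO peaks and 6 of 57 WT peaks did. More peaks of either list within a stretch bring the lists closer by themselves, so this is a description only.

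By function, 304 genes in 11 lists were counted for a peak in the record or within 3 kb of an end, to be read beside the 4.36% (DNAJC12KO) and 2.88% (WT) of all 3787 genes and the 8.23% (DNAJC12KO) and 6.46% (WT) of the genome. The lists were written with earlier results of these data known and no set test was made, so the shares are a description only. Of 22 axon guidance genes, 5 had a DNAJC12KO peak (22.7%) and 3 a WT peak (13.6%). All of these genes lay on chromosome 3. SEMA3F, SEMA3G, PLXNB1, PLXNA1 and PLXND1 lay in its stretches at 46 to 54 and 126 to 130 Mb, which were defined by their many peaks. The fold given for each gene is that of its peak with the highest −log10 q in the list named. SEMA3F (4.07 in the DNAJC12KO list, against 4.46 in the WT list) and PLXNA1 (3.97 in DNAJC12KO, 4.39 in WT) had both. SEMA3G (3.77) and PLXNB1 (3.71) had a DNAJC12KO peak only. None of the list's EPHA receptors, ROBO1, ROBO2, SLIT2 or SLIT3 had a peak in either list.

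Of 21 growth factors and receptor tyrosine kinases, 4 had a DNAJC12KO peak and 3 a WT peak. FGFR3 had DNAJC12KO peaks only. HGFAC (4.14 in the DNAJC12KO list, against 3.85 in the WT list), MST1R (3.89 in DNAJC12KO, 3.86 in WT) and FGFRL1 (3.78 in DNAJC12KO, 3.82 in WT) had both. KIT, KDR and PDGFRA had none in either list.

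Of 37 channels, transporters and transmitter receptors, 6 had a DNAJC12KO peak and 4 a WT peak. SLC9A3 had both (3.78 in the DNAJC12KO list, against 4.21 in the WT list). The neighbouring amino acid transporter genes SLC6A18 and SLC6A19 were counted for the same DNAJC12KO peak (4.20), and GRM4, a metabotropic glutamate receptor, had WT peaks only (4.06). None of the GABA receptor subunits or DRD dopamine receptors of the list had a peak.

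Of 20 WNT and TGF-beta signalling genes, 2 had a DNAJC12KO peak and 3 a WT peak, with none in common. PPP2R2C, a regulatory subunit of protein phosphatase 2A, had a DNAJC12KO peak only (3.74). CTBP1, a transcriptional corepressor (4.18), TCF7 (3.41) and NKD2 (3.504) had WT peaks only. Of 24 chromatin regulators, BAP1 (3.93) and HDAC11 (3.69), a histone deacetylase gene, had a DNAJC12KO peak and none had a WT peak. The peak given for BAP1 lay in DNAH1 and counted for BAP1 by the 3 kb window only.

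Of 20 neural crest and neuroblastoma regulators, TERT alone had a peak, in both lists. HAND2, a transcription factor of sympathetic neuroblasts, lay 5.20 Mb from the nearest DNAJC12KO peak and 9.37 Mb from the nearest WT peak. The peak lists hold no expression, so the neuroblastoma identity of the cells could not be checked by it. None of the 13 glycolysis, glyoxalase and lactate-related genes, the 18 ribosomal protein genes, the 55 clustered histone genes or the 53 clustered protocadherins had a peak in either list. At the shares of all 3787 genes, the smaller of these lists would hold less than 1 such gene, so a count of 0 there is near the background. Of 22 MHC and antigen presentation genes, CFB, a complement factor gene, had an end peak of the DNAJC12KO list (3.51) and none had a WT peak. That peak lay in the neighbouring gene NELFE and counted for CFB by the 3 kb window only.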

How the data were processed

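The authors deposited 1 broad peak list per genotype. MACS2 2.2.6 and build hg38 are named per the submitters' processing notes. Not given in the sources used here are the aligner, the filters on reads, the control and options of peak calling, and how the spike-in was used. The values the authors deposited per peak are a score (not used), a fold enrichment, and −log10 p (not used) and −log10 q. The inputs, the IgG and the spike-in were not used here. Columns of other samples numbered 0.

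Genes, strands and sequences came from RefSeq GRCh38.p14, with 20033 protein-coding records. That gene table gives no strand, so a gene end is either end of its record. A peak counted for a gene when it overlapped the record or its 3 kb flank by at least 1 bp. Named genes are the 5 top peaks per list, all overlaps, the 6 leading genes per end set, the 6 with most peaks, up to 4 per stretch and per gene list, and TERT, FGFR3 and HAND2; some results under this rule are not reported here. The promoter windows are the 5 highest by −log10 q. Members and gene lists were chosen with earlier results of these data known. No test was made; shares have exact 95% intervals. Alternatives were other thresholds, windows and zones, lists of equal length, and each chromosome left out. Counting was tested on simulated peaks. Python 3.11.15, numpy 2.4.6, pandas 2.3.3, scipy 1.17.1 and matplotlib 3.10.9 were used.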

Additional observations from a re-analysis of the deposited data

How the results depend on the processing

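Of the alternative values, 31 changed but stayed within the interval of the value reported and 37 moved outside it. Another 6, WT values at equal list length, could not change because the WT list is the shorter one. Of the 31, 8 had lists of equal length and 8 a chromosome left out. No paired analysis was possible because each genotype had 1 immunoprecipitated library. The depth of the libraries is unknown, and most peaks lie near the threshold, so counts per list follow the threshold. The cause of the changes was not tested beyond what each setting does by construction.

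At a −log10 q of at least 2, chromosomes 3 to 6 held 6.93% of the DNAJC12KO list. End zones then held 8 of 19 DNAJC12KO peaks (42.1%, 20.3 to 66.5) and 9 of 16 WT peaks (56.2%, 29.9 to 80.2). Gene-dense bins held 6 of the 19 DNAJC12KO peaks (31.6%, 12.6 to 56.6) and gene ends 3 of them (15.8%, 3.38 to 39.6). These wide intervals each include the value reported without the threshold. A peak at an end remained for 0.0792% (DNAJC12KO) and 0.158% (WT) of genes, and for 0% of gene list members in either list, against 2.63% (DNAJC12KO) and 1.64% (WT) without the threshold.

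At a fold of at least 4, overlap between the lists was 0% of either. End zones held 20 of 44 DNAJC12KO peaks (45.5%, 30.4 to 61.2). Gene-dense bins held 30 of 50 WT peaks (60%, 45.2 to 73.6) and gene ends 15 of them (30%, 17.9 to 44.6). These intervals of end zones, dense bins and gene ends too include the values reported without the threshold. A peak at an end remained for 0.370% (DNAJC12KO) and 0.528% (WT) of genes, and for 0.987% of list members in the DNAJC12KO list.

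With sharing counted within 10 kb in place of overlap, the shares were 19.6% (DNAJC12KO) and 30.1% (WT). End zones of 3 Mb, 3.24% of the span, held 25.3% (DNAJC12KO) and 37.3% (WT). Those of 10 Mb, 10.8% of the span, held 44.9% (DNAJC12KO) and 55.6% (WT). Bins with at least 10 genes held 60.4% (DNAJC12KO) and 58.2% (WT), and those with at least 20 held 29.0% (DNAJC12KO) and 26.1% (WT). With a window of 1 kb, 9.80% of the DNAJC12KO and 8.50% of the WT peaks lay at gene ends, and with 10 kb 49.0% (DNAJC12KO) and 52.3% (WT). Genes with a peak at an end were 1.003% (DNAJC12KO) and 0.449% (WT) at 1 kb, and 4.38% (DNAJC12KO) and 2.96% (WT) at 10 kb. Gene list members with one were 0.329% in the WT list at 1 kb and 6.25% in the DNAJC12KO list at 10 kb.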
